A study of Mus musculus with 12 samples.

Results

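The transcripts that load and display peptides on MHC class I, 10 genes in all, were followed across 12 RNA-seq libraries of mouse pylorus, the outlet of the stomach. The genes were taken by symbol from the count table, H2-K1, H2-D1, B2m, Tap1, Tap2, Tapbp, Nlrc5, Psmb8, Psmb9 and Erap1, and all 10 were found among its 23420 genes. They were picked by role, not by a threshold on measured values, but with earlier results of these data known. All 10 also passed the filter on low counts, with 15369 genes in all. The mice were wild-type C57BL/6 or CEA424-SV40 T Ag transgenic on the same strain. Wild-type mice were taken when 60 days (group D60WT) or 80 days old (D80WT), and transgenic mice at the same ages (D60SV and D80SV), each group with 3 libraries numbered 1 to 3. The transgene places the SV40 T antigen under a fragment of the carcinoembryonic antigen promoter, and gastric tumours arise without further treatment. The series is titled as a study of immunotherapy and CD8+ T-cell infiltration in this immune-excluded gastric cancer model, and the 12 libraries carry no treatment label. RNA came from whole, freshly collected tissue, so fewer cells of a type and less RNA per cell cannot be told apart.

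MHC class I molecules show peptides from inside the cell to CD8+ T cells. A heavy chain such as H2-K1 or H2-D1 pairs with the light chain B2m in the endoplasmic reticulum, where Tap1 and Tap2 bring in peptides cut by the proteasome, Erap1 trims them and Tapbp (tapasin) bridges the empty molecule to the transporter. Psmb8 and Psmb9 are catalytic subunits of the immunoproteasome, which take the places of Psmb5 and Psmb6, and Nlrc5 is the transactivator of class I promoters. Nearly all nucleated cells, gastric epithelium and leukocytes included, transcribe the pathway at a basal level and raise it in response to interferons.

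Total counts per library ranged from 20121600 to 27633715, and values below are CPM, counts scaled to a common library size, with TMM composition factors from a trimmed mean of log ratios. In CPM, 3 counts were worth 0.0901 to 0.185. The labels do not say whether libraries of a group came from separate animals, and p-values then measure only the spread between these libraries. The summed surface mucous markers Muc5ac, Gkn1, Gkn2 and Tff1, which define this tissue, were at 53800 to 188000 CPM in wild-type and D60 transgenic libraries and at 16000 to 29000 CPM in D80 transgenic libraries. By Xist and 4 Y-linked genes, all 3 D60WT libraries were male in type and all 3 D60SV libraries female, so genotype and sex cannot be told apart at D60. All 3 D80WT libraries were female in type, as were D80SV2 and D80SV3, and D80SV1 was male. D80WT3 stood apart, with 9590 CPM of summed duodenal enterocyte markers against 272 and 1990 CPM in D80WT1 and D80WT2, and with 85.4 CPM of summed CD8 and cytotoxic lymphocyte markers against 1.54 and 15.6 CPM. It had the highest value of the 6 wild-type libraries for 8 of the 10 class I genes, so results that rest on it are given with and without it.

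Of the 10 genes, 7 lie on chromosome 17 within the MHC region (coordinates on GRCm38). Tapbp is at chr17:33915899-33929292 on the plus strand and H2-K1 at chr17:33996017-34000347 on the minus strand. A cluster follows with Psmb9 (chr17:34181987-34187764, minus), Tap1 (chr17:34187553-34197225, plus), Psmb8 (chr17:34197721-34201454, plus) and Tap2 (chr17:34203527-34216321, plus), and H2-D1 is at chr17:35262730-35267499 on the plus strand. B2m is at chr2:122147686-122153083, Nlrc5 at chr8:94434356-94527272 and Erap1 at chr13:74639568-74693201, all on the plus strand. Psmb9 and Tap1 are transcribed in opposite directions and share 212 exon bases, 5.79% and 3.87% of their exon lengths. Erap1 shares 834 exon bases (11.5%) with Cast on the opposite strand, and Tapbp shares 149 bases (4.11%) with Zbtb22 on the same strand. The library kit was stranded, but the strand setting of the counting is not given in the sources used here. Near-identical copies matter for the heavy chains, since 8.79% of the 50-base windows of the H2-K1 transcript and 14.3% of those of H2-D1 also occur in other genes, so their counts are uncertain to that extent.

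Promoter sequences from RefSeq (GRCm38.p6, 250 bases before to 50 after each start) were matched for 8 of the 10 genes, all but Tap2 and Nlrc5. They are shown because the heavy chain genes, B2m and the Tap1 and Psmb9 pair all had raised levels in D60SV, as described below. Capitals mark matches to a kappa B site (the first capitals in the H2-K1 and H2-D1 lines), to TGACG (the core of a cyclic AMP response element), to CCAAT (the NF-Y box, ATTGG on the other strand) and to the core of an interferon-stimulated response element, which is GAAA repeated after 2 bases of any kind (the first capitals in the B2m line, and the reverse strand in the Erap1 line). The first 3 stretches run up to the start of H2-K1 (chr17:34000348-34000478, minus strand), H2-D1 (chr17:35262903-35263093, plus strand) and B2m (chr2:122147528-122147686, plus strand). The fourth is the interval between the RefSeq starts of Psmb9 and Tap1 (chr17:34187331-34187555, plus strand, read towards Tap1), and the last spans the start of Erap1 (chr13:74639783-74639862, plus strand).
H2-K1: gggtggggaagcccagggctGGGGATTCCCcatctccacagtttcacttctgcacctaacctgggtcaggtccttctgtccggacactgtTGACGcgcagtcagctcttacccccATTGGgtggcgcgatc
H2-D1: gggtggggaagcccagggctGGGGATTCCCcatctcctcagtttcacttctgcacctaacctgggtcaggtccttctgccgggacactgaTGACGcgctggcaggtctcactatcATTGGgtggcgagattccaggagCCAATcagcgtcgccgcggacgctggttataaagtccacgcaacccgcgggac
B2m: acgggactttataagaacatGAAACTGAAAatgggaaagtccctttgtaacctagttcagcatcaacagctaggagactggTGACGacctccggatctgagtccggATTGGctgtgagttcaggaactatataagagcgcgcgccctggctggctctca
Tap1 and Psmb9: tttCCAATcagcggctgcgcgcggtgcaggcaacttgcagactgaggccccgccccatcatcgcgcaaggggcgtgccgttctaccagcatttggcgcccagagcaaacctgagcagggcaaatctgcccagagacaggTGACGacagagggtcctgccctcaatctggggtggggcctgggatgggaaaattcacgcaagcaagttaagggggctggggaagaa
Erap1: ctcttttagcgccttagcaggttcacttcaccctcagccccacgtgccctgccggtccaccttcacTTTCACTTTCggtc

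The H2-K1 and H2-D1 stretches share a kappa B site, TGACG and ATTGG in that order. From the kappa B site to ATTGG, 89 of 100 bases were identical between them. A further CCAAT lies 53 to 49 bases before the H2-D1 start. The H2-K1 window also has a further CCAAT, 9 to 13 bases after its start and so beyond the printed stretch. The kappa B site was searched only as the exact string in capitals in the H2-K1 and H2-D1 lines, on both strands like the other motifs. It was in the windows of these 2 genes and in 0.107% of 32851 RefSeq promoter windows of the same length (300 bases). Other forms of a kappa B site were not counted. Since the string searched is the one these 2 genes carry, enrichment was not tested by that share. TGACG followed by ATTGG after 10 to 30 bases was in the windows of H2-K1, H2-D1 and B2m and in 0.743% of all windows. Singly, TGACG was in 5 of the 8 matched windows (H2-K1, H2-D1, B2m, Tap1 and Psmb9) and in 20.8% of all windows, and CCAAT in 6 of 8 (those 5 and Tapbp) and in 37.4% of all. The Tap1 and Psmb9 windows overlap, and their TGACG and CCAAT matches are the same sites read from either side. With H2-K1 and H2-D1 near copies as well, the matches are not independent. The interferon-stimulated response element core was found 139 to 130 bases before the B2m start and across the Erap1 start, and in 3.44% of all windows. Only this exact pattern was searched. Sequences close to it were not counted, so the other windows, those of the heavy chains included, cannot be said to lack such an element. TTCNNNGAA, the gamma-activated site of interferon-gamma targets, was in the Psmb8 window 97 to 89 bases before its start and in 8.3% of all windows. These are matches of letters in a window of fixed length, not sites of measured binding.

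Per kilobase of exon, the structural chains were the most abundant class I transcripts and Nlrc5 the least in all 4 groups. In D60 wild-type tissue H2-K1 was at 227 ± 23.1 CPM per kb (SD, n = 3) and B2m at 193 ± 31, and their libraries overlapped. H2-D1 followed at 86.1 ± 14 and Tapbp at 38.6 ± 2.09 CPM per kb, both apart from their neighbours in this order. Tap2 was at 6.77 ± 0.696, and the next 4, Erap1 (3.68 ± 0.105), Psmb9 (3.4 ± 0.293), Psmb8 (3.13 ± 0.876) and Tap1 (2.89 ± 0.177), lay close together, with Psmb8 overlapping the other 3. Nlrc5 was lowest at 0.125 ± 0.0413 CPM per kb. In D60 transgenic tissue Tap1 stood at 12.9 ± 1.95 and Tap2 at 12.1 ± 1.35 CPM per kb, with libraries that overlapped. There B2m was at 578 ± 199 and H2-K1 at 408 ± 78.5 CPM per kb, again overlapping. Exon length here counts each annotated exon base of a gene once, over all its transcripts. It was 2938 bases for H2-K1, 5476 for Tap1 and 3781 for Tap2, where the longest coding transcripts had 1619, 2953 and 3442. For B2m both were 860 bases. The order of the genes and the overlaps between them rest on this choice of length.

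At D60, class I pathway transcripts stood above wild-type levels in transgenic pylorus, from the transactivator Nlrc5 through both heavy chains and B2m to the peptide transporter. Of the 10 genes, 9 passed the edgeR test at an adjusted p of 0.05, where 3.66% of the 15369 genes tested were called higher. Their median difference over the 10 genes was 1.17 on the log2 scale, against -0.0041 over all genes tested. For all 10 the lowest transgenic library was above the highest wild-type library, which held for 12.2% of all genes.

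Nlrc5 had the widest difference of the 10. It was at 0.679, 1.37 and 1.14 CPM in the D60 wild-type libraries, from 11 to 29 counts, and at 8.78, 12.3 and 19.1 CPM in the D60 transgenic libraries. The log2 difference was 3.63 (SE 0.42, 95% interval 2.71 to 4.55, edgeR adjusted p = 0.00032), a 12.4-fold higher level.

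H2-K1, the most abundant heavy chain, was at 741, 610 and 647 CPM in D60 wild-type and at 1040, 1090 and 1460 CPM in D60 transgenic libraries. Its log2 difference was 0.85 (SE 0.18, edgeR adjusted p = 0.019). H2-D1 was at 262, 193 and 211 CPM against 358, 363 and 496 CPM. The log2 difference of H2-D1 was 0.87 (SE 0.19, edgeR adjusted p = 0.021), so the 2 heavy chains were 1.8-fold and 1.83-fold higher. B2m, the light chain that every class I molecule needs, was at 139, 193 and 167 CPM in wild-type and at 358, 446 and 688 CPM in transgenic libraries, 2.99-fold higher (log2 1.58, SE 0.35, edgeR adjusted p = 0.027). D60SV3 was the highest of the 3 transgenic libraries for 8 of the 10 genes, these 3 chains included.

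Both subunits of the peptide transporter were higher. Tap1 was at 14.9, 16.8 and 15.8 CPM in D60 wild-type and at 70.3, 60.5 and 81.9 CPM in D60 transgenic libraries, 4.47-fold higher (log2 2.16, SE 0.26, edgeR adjusted p = 0.00041). Tap2, its partner in the same pump, was at 24.7, 28.5 and 23.5 CPM against 41.8, 44.2 and 51.5 CPM, 1.79-fold higher (log2 0.84, SE 0.21, edgeR adjusted p = 0.044). Wild-type libraries thus held fewer Tap1 than Tap2 counts and transgenic libraries more. The tapasin gene Tapbp was at 149, 137 and 134 CPM against 253, 220 and 239 CPM (log2 0.76, SE 0.18, edgeR adjusted p = 0.035). Erap1, the trimming peptidase, had the smallest difference, from 25.9, 27.3 and 27.2 CPM to 41.4, 39 and 35.5 CPM (log2 0.53, SE 0.11, edgeR adjusted p = 0.019).

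The immunoproteasome subunit Psmb9 was at 11.4, 12.4 and 13.6 CPM in D60 wild-type and at 32.3, 31.9 and 47.2 CPM in D60 transgenic libraries, 2.98-fold higher (log2 1.57, SE 0.36, edgeR adjusted p = 0.029). Psmb8 was at 7.22, 12.9 and 11.6 CPM against 20.7, 25.3 and 42.1 CPM. Its groups did not overlap either, but its log2 difference of 1.47 (SE 0.51, 95% interval 0.36 to 2.58) had an edgeR adjusted p of 0.18, which makes it the gene that missed the threshold.

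**Figure D1:**
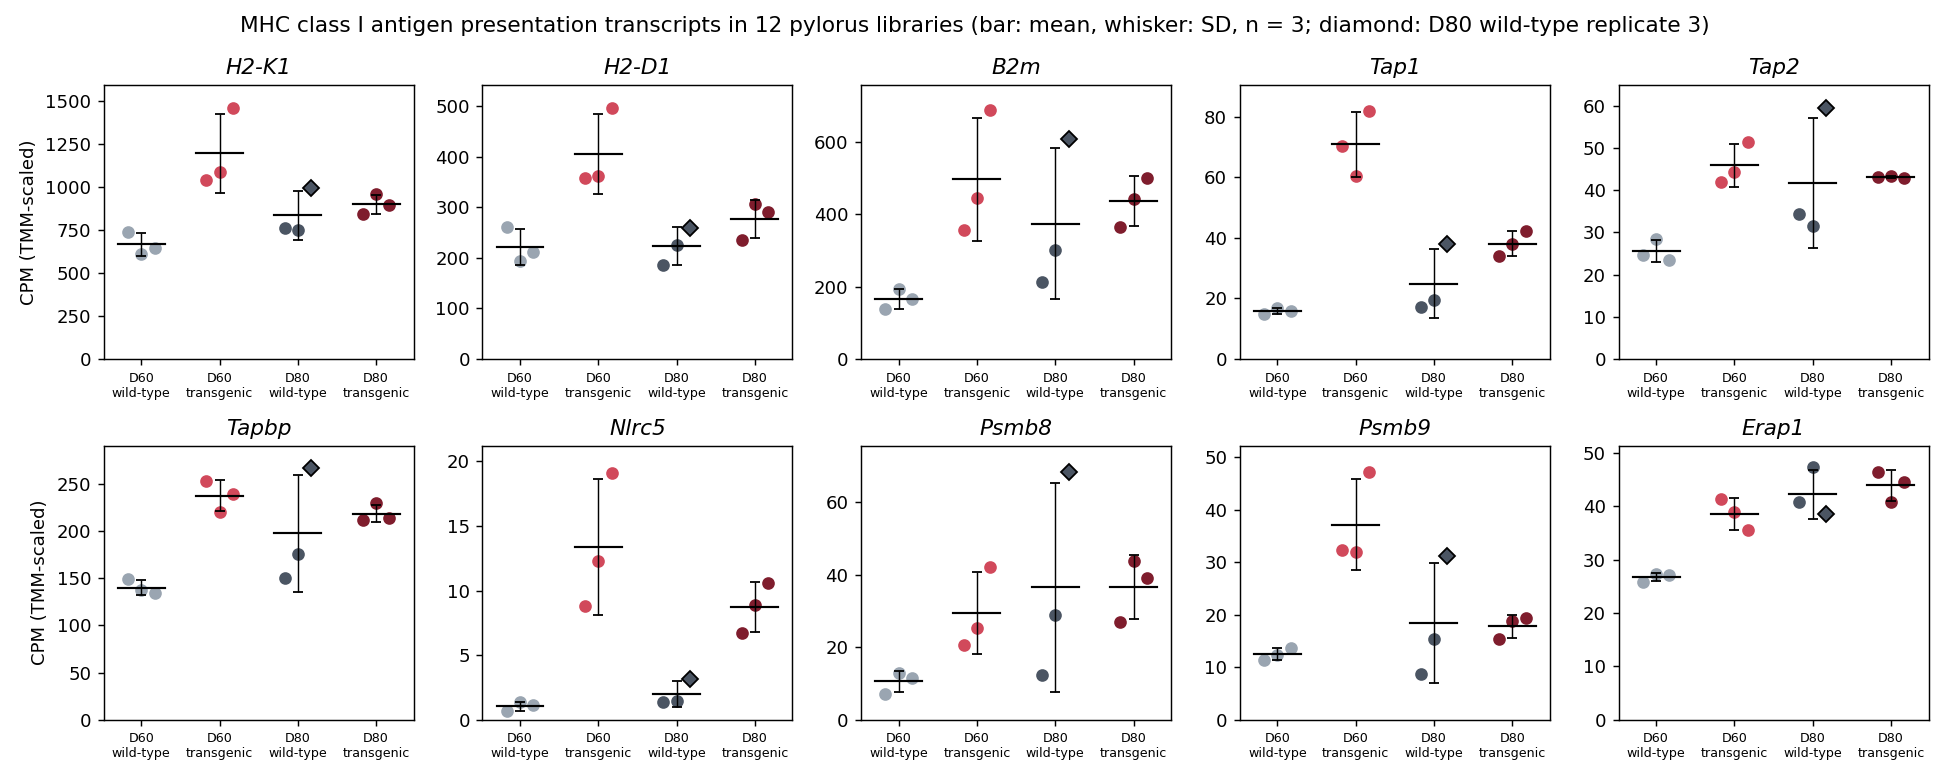
CPM (TMM-scaled, linear axes from 0) of the 10 class I genes in each of the 12 libraries, by group, with the mean as a bar and the SD as a whisker (n = 3). In each panel the 3 D60 transgenic libraries lie above the 3 D60 wild-type libraries, and the diamond, D80WT3, is the highest D80WT point in 9 of 10 panels.

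Nlrc5 and Tap1 kept their D60 calls whichever library was left out, with log2 differences of 3.29 to 3.86 and 2.05 to 2.25. The other 7 calls were lost without some library, although all 10 differences stayed positive. H2-K1 (log2 0.68 to 0.94 over the 12 omissions) and H2-D1 (0.70 to 0.99) lost theirs without D60SV3, D60WT2 or D60WT3, at edgeR adjusted p of up to 0.095 and 0.11. B2m (1.27 to 1.77) and Psmb9 (1.36 to 1.66) lost theirs without D60SV2, D60SV3 or any D60WT library, and Psmb9 also without D80SV3, at adjusted p of up to 0.13 and 0.12. Erap1 (0.47 to 0.58) did so without D60SV1, D60SV2 or any D60WT library, at up to 0.11. Tap2 (0.75 to 0.93) and Tapbp (0.71 to 0.81) did so without any 1 of the 6 D60 libraries or the 3 of D80SV, at up to 0.18 and 0.15. Psmb8 passed without D80WT1 or D80WT3, at 0.041 and 0.047. The number called was 2 without D60WT2 or D60WT3, 3 without D60SV3, 4 without D60WT1 or D60SV2 and 6 without D60SV1 or D80SV3.

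Wild-type controls of the same sex type as D60SV were available only at the other age. With the 3 D80WT libraries as controls the differences of all 10 genes were smaller than in the D60 comparison, and 3 genes were called higher, Nlrc5 (log2 2.75, SE 0.39, edgeR adjusted p = 0.0017), Tap1 (1.51, SE 0.25, 0.0049) and H2-D1 (0.86, SE 0.19, 0.025). Of all genes 2.86% were called higher with these controls. The median of the 10 was then 0.466, and Psmb8 (-0.31) and Erap1 (-0.13) were below 0. With D80WT3 left out as well, an alternative chosen after seeing the data, 5 genes were called, Nlrc5 (3.23), Tap1 (1.95), Psmb9 (1.62), H2-D1 (0.98) and Tapbp (0.54), where 2.5% of all genes were called higher. The median was 0.81 and only Erap1 was below 0 (-0.19). In this comparison age differs in place of sex. With sex type as a covariate in the main model, where D80SV1 is the library that separates sex from the groups, 0 of the 10 were called and all 10 were above 0, with a median of 0.842 and a median SE of 0.415 against 0.233 without the covariate.

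**Figure D2:**
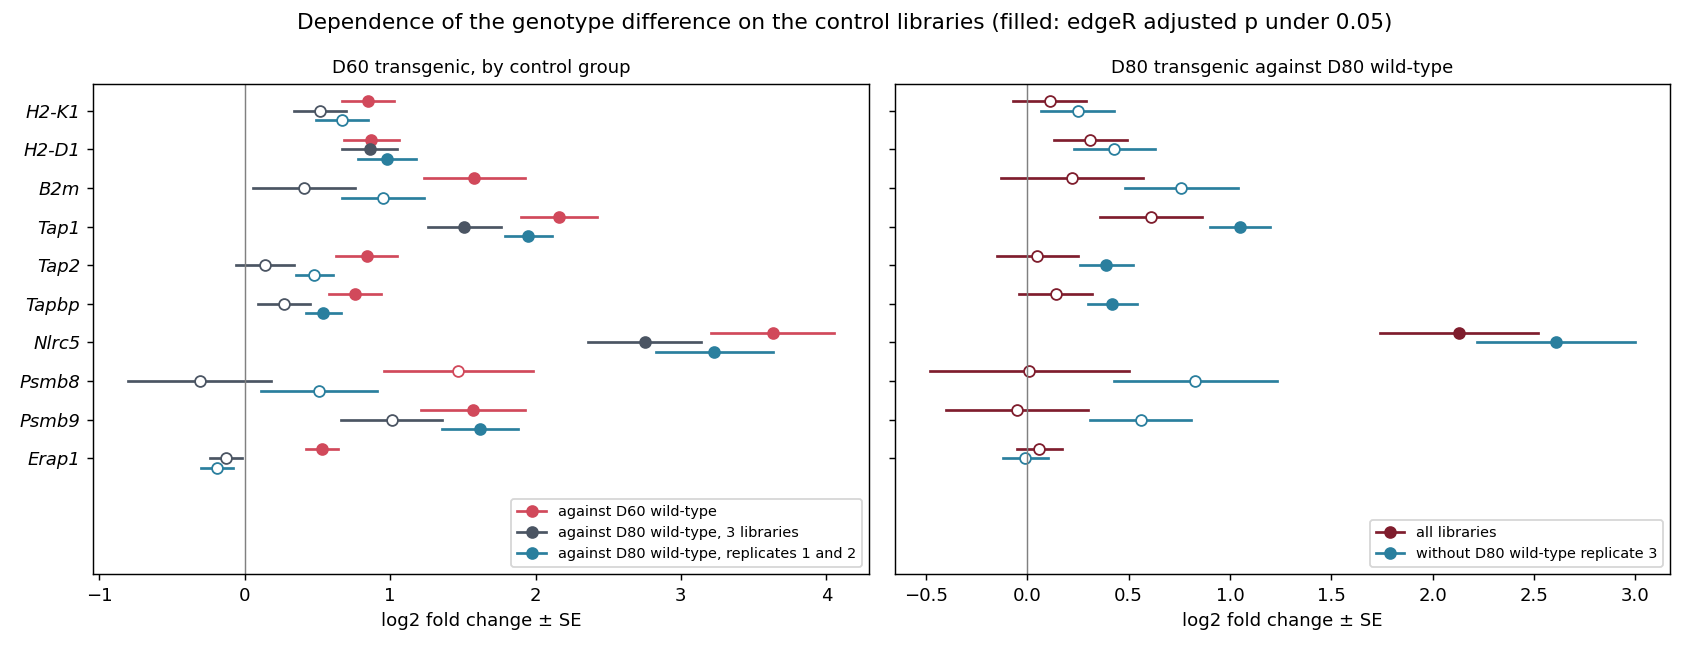
Log2 fold change ± SE from edgeR for the 10 genes, filled where the adjusted p was under 0.05. On the left, D60SV is set against 3 choices of control libraries, and Nlrc5, Tap1 and H2-D1 are filled under all 3. On the right, the D80 genotype difference is shown with all libraries and without D80WT3, where Tap1, Tap2 and Tapbp join Nlrc5.

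Markers of several cell types differed with genotype at D60, and their part in the class I differences was not tested. The 7 neuroendocrine markers, Chga and Syp among them, were all called higher, and summed to 285 to 414 CPM in wild-type and 4260 to 5830 CPM in transgenic libraries (median log2 2.92). The summed leukocyte markers (Ptprc, Cd53, Laptm5, Coro1a and Cd52) ranged from 13.2 to 34.5 CPM in wild-type and from 24.8 to 58.9 CPM in transgenic libraries, and 0 of 5 were called by edgeR, with 4 at an unadjusted p under 0.05. The 8 macrophage markers summed to 35.1 to 99.9 CPM against 79.5 to 180 CPM, with 1 called higher. CD8 and cytotoxic lymphocyte markers summed to only 0.803 to 2.69 CPM in wild-type and 2.46 to 3.87 CPM in transgenic libraries, with 0 of 10 tested called and 0 at an unadjusted p under 0.05. The 5 smooth muscle markers summed to 10900 to 13900 CPM against 4690 to 9720 CPM (median log2 -0.74), and 0 were called, with 4 at an unadjusted p under 0.05. Of the D60SV libraries, D60SV1 had the fewest leukocyte transcripts (24.8 CPM) and was the lowest for 6 of the 10 class I genes and the highest for 2. D60SV2 had 58.9 CPM and was the highest for 0 of the 10 and the lowest for 3. D60SV3 had 58.1 CPM and was the highest for 8 and the lowest for 1.

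At D80 Nlrc5 was the only gene of the 10 that was called between genotypes, and it was higher in transgenic mice. Genes called higher made up 19.4% of all genes at this age, so 1 of 10 is no more than the background. Nlrc5 was at 1.38, 1.46 and 3.12 CPM in D80 wild-type and at 6.7, 8.85 and 10.6 CPM in D80 transgenic libraries. Its log2 difference was 2.13 (SE 0.39, 95% interval 1.29 to 2.98, edgeR adjusted p = 0.0014), a 4.38-fold higher level, and it was called without any 1 library (1.92 to 2.61). It was also the only gene of the 10 with no overlap between the D80 groups in the higher direction, which held for 24.4% of all genes. Cell markers moved with genotype at this age too, and their part was not tested. All 5 leukocyte markers (summed 31.6 to 66.4 CPM in wild-type and 110 to 225 CPM in transgenic libraries), 8 of 8 macrophage markers and 7 of 7 neuroendocrine markers (484 to 525 against 24700 to 37000 CPM) were called higher. Epithelial markers (10000 to 14700 against 4340 to 6660 CPM) were called lower in 4 of 5, and smooth muscle markers in 5 of 5.

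Tap1 came next at D80, at 17.1, 19.6 and 38 CPM in wild-type and 33.9, 38 and 42.3 CPM in transgenic libraries (log2 0.61, SE 0.25, edgeR adjusted p = 0.068). The other 8 genes had log2 differences from -0.05 for Psmb9 to 0.31 for H2-D1, and the median of the 10 was 0.13 against -0.0742 over all genes. H2-K1 was at 759, 748 and 997 CPM against 845, 958 and 893 CPM (log2 0.11, 95% interval -0.28 to 0.49). B2m was at 212, 302 and 610 CPM against 364, 444 and 501 CPM (log2 0.22, 95% interval -0.54 to 0.98). Psmb8 spread widest, at 12.3, 28.9 and 68.2 CPM against 26.9, 43.8 and 39.2 CPM (log2 0.01, 95% interval -1.06 to 1.07), so differences of 2-fold in either direction lie inside its interval.

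D80WT3 weighed on these values. It exceeded all 3 D80 transgenic libraries in 6 of the 10 genes (H2-K1, B2m, Tap2, Tapbp, Psmb8 and Psmb9) and was below all of them in 2, Nlrc5 and Erap1. Without it, 4 genes were called higher at D80, Nlrc5 (log2 2.61), Tap1 (1.05, SE 0.15, edgeR adjusted p = 0.00058), Tap2 (0.39, SE 0.13, 0.034) and Tapbp (0.42, SE 0.12, 0.021), and the median of the 10 was 0.497. Without D80WT3, 18% of all genes were called higher. The fit that also left out D80SV1, the library with the most pancreatic transcripts, called 4 as well, Nlrc5, Tap1 (1.12), Tapbp (0.44) and B2m (0.87, edgeR adjusted p = 0.047). There 17.1% of all genes were called higher.

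The D80 calls also moved with the scaling. TMM factors were 1.21 to 1.3 in D80SV libraries and 0.805 to 1.03 elsewhere. Without a composition factor the median of all genes rose by 0.414, genes called higher and lower went from 2974 and 3380 to 5104 and 1001, and 6 of the 10 class I genes were called. Relative to the median of all genes, the 10 genes stood 0.22 higher in that fit and 0.2 higher with TMM. Upper-quartile factors gave 3571 and 2093 genes and 3 class I genes, with a shift of 0.159. At D60 the number of class I genes called was 9 under each of the 4 scalings, and without a composition factor the median of all genes moved by 0.108.

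From D60 to D80 in transgenic mice, H2-D1, Tap1 and Psmb9 fell, 3 of 10, where 18% of all genes were called lower. Tap1 went from 70.9 ± 10.7 CPM (SD, n = 3) to 38.1 ± 4.19 CPM (log2 -0.90, SE 0.25, edgeR adjusted p = 0.016). Psmb9 went from 37.1 ± 8.73 to 17.8 ± 2.18 CPM (log2 -1.06, SE 0.35, edgeR adjusted p = 0.034), and H2-D1 from 406 ± 78 to 278 ± 37.8 CPM (log2 -0.55, SE 0.19, edgeR adjusted p = 0.038). H2-K1 had no overlap between ages either, at 1200 ± 231 and 899 ± 56.6 CPM, without passing the test (log2 -0.42, edgeR adjusted p = 0.087). These 4 genes were below all D60 libraries at D80, as were 28% of all genes. Psmb8 and Erap1 had positive differences (0.32 and 0.19), B2m, Tap2, Tapbp and Nlrc5 had values from -0.62 to -0.09, and none of the 6 was called. The median of the 10 was -0.30, against 0.0227 over all genes.

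The calls in transgenic mice were sensitive to single libraries and to scaling. Tap1 lost its call without D60SV3, D80SV1 or D80SV2 (log2 -0.78 to -0.89, edgeR adjusted p 0.052 to 0.061). Psmb9 lost its call without any of the 6 transgenic libraries or without D60WT1 (log2 -0.85 to -1.15, up to 0.12), and H2-D1 without any transgenic library other than D60SV1, or without D60WT1 or D60WT3 (log2 -0.38 to -0.62, up to 0.16). Without a composition factor the median of all genes rose by 0.365, 5154 and 1098 genes were called higher and lower in place of 2725 and 2765, and 0 of the 10 class I genes were lower. Their median relative to all genes was -0.319 in that fit and -0.325 with TMM. The same ages differed in cell markers, whose part was not tested: epithelial markers summed to 12200 to 16300 CPM at D60 and 4340 to 6660 CPM at D80, leukocyte markers to 24.8 to 58.9 CPM and 110 to 225 CPM, and neuroendocrine markers to 4260 to 5830 CPM and 24700 to 37000 CPM.

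In wild-type mice all 10 genes had higher means at D80 than at D60, and edgeR called 0 of them, as it called 0 of all 15369 genes. An unadjusted p under 0.05 was found for 6 of the 10, against 1925 of all genes. The median of the 10 was 0.66, against 0.0425 over all genes, and in 7 of them the D80 libraries lay above all D60 libraries, which held for 7.06% of all genes. Erap1 had the narrowest interval, from 26.8 ± 0.762 to 42.3 ± 4.59 CPM (log2 0.66, SE 0.11, 95% interval 0.41 to 0.90, unadjusted p = 7.8e-05, edgeR adjusted p = 0.28). Erap1 differs from the other 9 genes here in that D80WT3 was its lowest D80WT library, at 38.5 CPM against 40.9 and 47.4 CPM. Psmb8 (log2 1.78, SE 0.51) and B2m (1.17, SE 0.35) had the largest differences, and their D80 values ran from 12.3 to 68.2 CPM and from 212 to 610 CPM. Without D80WT3 the median of the 10 was 0.29 and 8 were above 0. Limma-voom called 0 of the 10, DESeq2 called 2 (Erap1 and Psmb8), and edgeR without D80WT1 called 3, B2m (1.46), Erap1 (0.68) and Psmb8 (2.19), among 376 genes called higher. All D60WT libraries were male in type and all D80WT libraries female, so sex and age cannot be told apart here.

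**Figure D3:**
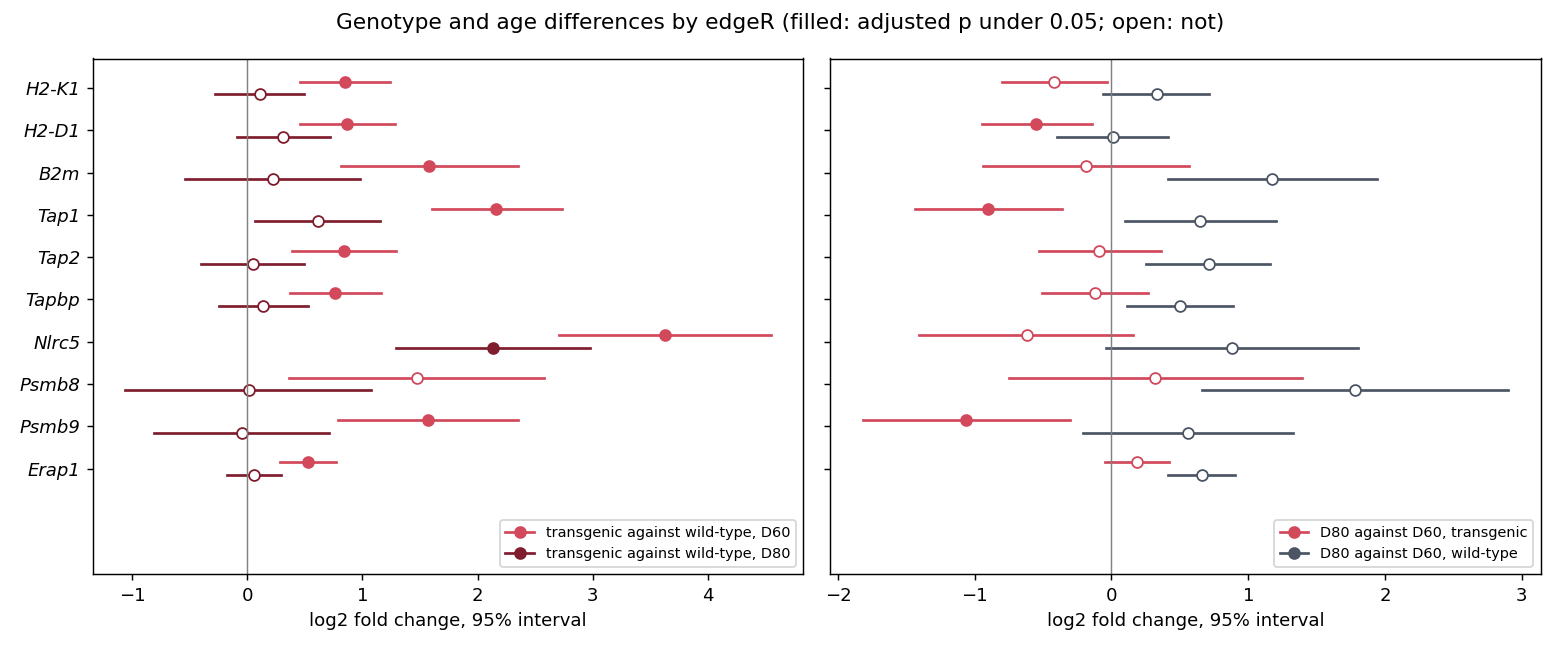
Log2 fold change with its 95% interval from edgeR for the 10 genes, filled where the adjusted p was under 0.05. On the left 9 genes are filled for transgenic against wild-type at D60 and only Nlrc5 at D80. On the right the change from D60 to D80 is filled for H2-D1, Tap1 and Psmb9 in transgenic mice and for no gene in wild-type mice.

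The genotype difference itself was smaller at D80 than at D60 for Tap1, by the interaction of genotype and age. The interaction was -1.55 on the log2 scale (SE 0.35, 95% interval -2.32 to -0.78, edgeR adjusted p = 0.031), and 2.23% of all genes had an interaction called in this direction. The other 9 interactions were also below 0, from -0.47 for Erap1 to -1.62 for Psmb9 (SE 0.50, adjusted p = 0.079), with a median over the 10 of -1.08 against -0.0588 over all genes, and none of the 9 was called. A smaller difference was therefore called for Tap1 alone, and the call was lost without D60SV1, D60SV3, any D60WT library or any D80SV library (log2 -1.44 to -1.60, adjusted p 0.05 to 0.087). The D60 genotypes differ in sex type and D80WT does not share the type of D60WT, so sex type is mixed into the interaction. With sex type as a covariate 0 of the 10 were called. Without D80WT1 the interaction was called in 5 genes, Tap1, B2m (-1.65), Psmb8 (-1.88), Psmb9 (-1.96) and Tapbp (-0.79). In that fit 9.87% of all genes had an interaction called in this direction. Without D80WT3 that of Tap1 was -1.12. Without a composition factor, 520 and 136 genes had a positive or negative interaction in place of 425 and 343, with upper-quartile factors 477 and 252, and the median of all genes moved by 0.305 and 0.117. Tap1 was at -1.19 without the composition factor, with an adjusted p of 0.06.

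Ratios of counts within a library do not depend on scaling between libraries. At D60 the ratio of Tap1 to Tap2 counts was 0.603, 0.589 and 0.672 in wild-type and 1.68, 1.37 and 1.59 in transgenic libraries, and at D80 it was 0.499, 0.626 and 0.64 against 0.786, 0.876 and 0.986. Transgenic libraries were thus above wild-type libraries at both ages, 2.48-fold at D60 and 1.5-fold at D80, and D80WT3, at 0.64, was within the range of D60 wild-type libraries. Within transgenic mice the ratio at D80 was 0.57 times that at D60, again without overlap. For each of these 3 comparisons the exact permutation test gave a two-sided p of 0.1, the smallest that 3 libraries against 3 allow.

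The immunoproteasome subunits were set against the constitutive subunits they replace in the same way. Psmb9 to Psmb6 was 0.0537, 0.0734 and 0.0661 in D60 wild-type and 0.192, 0.203 and 0.268 in D60 transgenic libraries, a 3.43-fold higher ratio. Psmb8 to Psmb5 was 0.0838, 0.199 and 0.141 against 0.308, 0.415 and 0.655, a 3.29-fold higher ratio, and Psmb10 to Psmb7 was 0.251 to 0.331 against 0.475 to 0.682, 1.9-fold higher. None of the 3 ratios overlapped between the D60 groups (exact permutation p = 0.1 each, two-sided, the smallest possible). At D80 all 3 overlapped, with Psmb9 to Psmb6 at 0.0521, 0.114 and 0.197 in wild-type and 0.127, 0.142 and 0.148 in transgenic libraries. The ratio of H2-K1 to H2-D1 overlapped between the D60 groups, with the transgenic mean at 0.981 times that of wild-type libraries. B2m to H2-K1 was 0.188 to 0.316 against 0.344 to 0.47, 1.63-fold higher and without overlap.

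**Figure D4:**
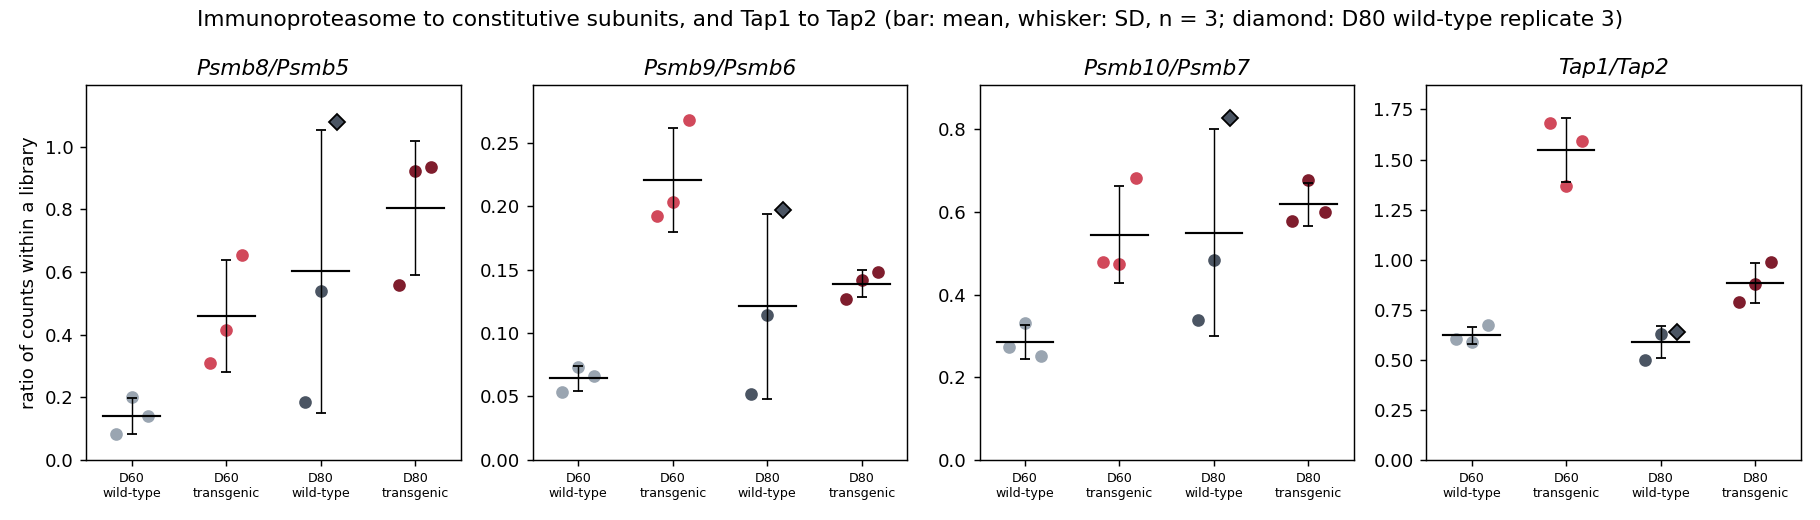
Ratio of counts within each library (linear axes from 0) for Psmb8 to Psmb5, Psmb9 to Psmb6, Psmb10 to Psmb7 and Tap1 to Tap2, with the mean as a bar and the SD as a whisker (n = 3). D60 transgenic libraries lie above D60 wild-type libraries in all 4 panels, and D80WT3 (diamond) is far above the other D80WT points for the proteasome ratios but at 0.64 for Tap1 to Tap2.

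Among the other class I heavy chain genes, 15 of 21 listed were tested, and 3 were higher in transgenic libraries at D60, where 3.66% of all genes were, and 6 at D80, where 19.4% were, with 0 lower at either age. H2-T24 was at 0.648 ± 0.419 CPM in D60 wild-type and 3.51 ± 1.33 CPM in D60 transgenic libraries (log2 2.41, SE 0.43, edgeR adjusted p = 0.0066), and at 0.822 ± 0.102 and 2.94 ± 0.721 CPM at D80 (1.83, SE 0.41, 0.0048). H2-Q4 was at 16.5 ± 5.08 against 50.1 ± 14.5 CPM at D60 (1.60, SE 0.26, 0.0034). H2-M3, which presents formylated peptides, was at 6 ± 1.54 against 12.1 ± 1.39 CPM at D80 (1.02, SE 0.24, 0.0063). The median over the 15 was 0.63 at D60 and 0.39 at D80. With a minimum mean of 5 CPM, 1 was called at D60 and 2 at D80, with DESeq2 5 at D60, and with sex type as a covariate 0 at D60. These genes share sequence with each other and with H2-K1 and H2-D1, so how their reads were divided is uncertain.

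Few genes that act around the 10 in peptide supply were called at D60. Of 17 genes for proteasome activators, peptidases and chaperones, 0 were called at D60 by edgeR, with 4 at an unadjusted p under 0.05, 1 called by DESeq2, 0 by limma-voom and 2 without D80WT1 or D80WT3, and their median was -0.04. Calr, Canx and Pdia3, the chaperones of the loading complex beside tapasin, had D60 differences of -0.05, -0.07 and -0.02 (SE 0.17, 0.17 and 0.19). Psmb10, the third inducible subunit, was at 34 ± 3.7 and 57.8 ± 10.1 CPM at D60 (log2 0.76, SE 0.26, edgeR adjusted p = 0.17), and the proteasome activator subunit Psme1 had a D60 difference of 0.61 (SE 0.17, adjusted p = 0.085). Of the 14 constitutive 20S proteasome subunits, 0 were called at D60, by edgeR, DESeq2 or limma-voom, with 1 at an unadjusted p under 0.05 and a median of -0.17. From D60 to D80 in transgenic mice 9 of these 14 fell with TMM (median -0.37), where 18% of all genes did, and 0 without a composition factor, where Psma2 and Psmb7 were at 0.02 and 0.01. That count was 3 to 5 without any 1 transgenic library or without D60WT1. At D80 4 of the 14 and 3 of the 17 supply genes were called lower in transgenic mice, where 22% of all genes were, and 0 of each without a composition factor. The 4 became 0 to 2 without D60SV2, any D80SV library, D80WT2 or D80WT3 and 8 without D60WT2, and the 3 became 0 or 1 without D80SV2, D80SV3, D80WT2 or D80WT3 and 6 without D80WT1.

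Of 21 transcription regulators of class I genes, 3 were higher at D60 (3.66% of all genes), among them Irf9 and Stat2, which activate interferon-stimulated genes together. Irf9 was at 12.9, 19 and 14.9 CPM in D60 wild-type and at 62.8, 53.5 and 56.1 CPM in D60 transgenic libraries (log2 1.88, SE 0.17, edgeR adjusted p = 6.8e-05). Stat2 was at 23.8, 23.6 and 19.8 CPM against 72.8, 74 and 74.7 CPM (1.72, SE 0.22, 0.00064). Both calls at D60 held without any 1 library, and that of Irf9 also with sex type as a covariate. At D80 Irf9 was higher (0.73, SE 0.17, edgeR adjusted p = 0.0051), and so was Stat2 (0.60, SE 0.21, edgeR adjusted p = 0.04), though its groups overlapped. In transgenic mice from D60 to D80 Irf9 (-0.68) and Stat2 (-1.02) were called lower, that of Irf9 not without a composition factor (adjusted p = 0.2). Irf1, an inducer of class I genes, was at 44.7 ± 3.82 and 74.2 ± 20.8 CPM at D60 (0.73, SE 0.34, adjusted p = 0.36). Rfxank, a subunit of the RFX complex on class I and class II promoters, was at 57.9 ± 19.5 CPM in D80 wild-type and 23 ± 3.52 CPM in D80 transgenic libraries (-1.33, SE 0.23, edgeR adjusted p = 0.0011), while its partners Rfx5 (0.02) and Rfxap (-0.05) were not called. In all, 3 of the 21 were higher at D80 and 2 lower, below the 19.4% and 22% of all genes. Without a composition factor these were 8 and 1, and the 2 became 1 without D60SV2, D60WT1, D80SV2, D80SV3 or D80WT3.

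Interferon transcripts themselves were low. Ifng had 0 to 3 counts in each of the 12 libraries, and Ifne, an interferon of epithelia, had 4 to 19 counts (0.163 to 0.809 CPM). Of 10 tested genes among interferons, their receptors and kinases, 0 were called at D60 by edgeR, DESeq2 or limma-voom, and 0 had an unadjusted p under 0.05. The interferon-gamma receptor chain Ifngr1 was at 194 ± 43.8 and 178 ± 15.5 CPM at D60 (log2 -0.12, SE 0.20). Il10rb, the shared chain of the interferon-lambda receptor, was lower at D80 (-0.59, SE 0.13, edgeR adjusted p = 0.0049), a call absent without a composition factor (adjusted p = 0.25). At D80 5 of the 10 were lower and 1 higher, where 22% and 19.4% of all genes were, with 0 lower without a composition factor and 1 to 3 lower without any D80SV library, D80WT2, D80WT3, D60SV2, D60WT1 or D60WT3. Of 4 tested proteins other than class I heavy chains that pair with B2m or resemble those that do, 0 were called at D60 and 2 at D80. Mr1, which presents vitamin B metabolites, was lower (-0.80, SE 0.18, edgeR adjusted p = 0.0048), though not without a composition factor (0.16). Cd1d1, which presents lipids, was higher (1.55, SE 0.49, edgeR adjusted p = 0.025), though not without D80SV2, D80SV3, D80WT1 or D80WT2.

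Across the 12 libraries the 10 genes varied together in log2 CPM. Over their 45 pairs the median Pearson r was 0.819, from 0.176 for H2-D1 with Erap1 to 0.947 for B2m with Tap2. After the group means were subtracted, the median was 0.699, from -0.824 for H2-K1 with Erap1 to 0.963 for B2m with Psmb8. Erap1 was in the lowest pair both times. After the subtraction its r was negative with every other gene of the 10, from -0.824 with H2-K1 to -0.396 with Psmb8, while all pairs without Erap1 were positive. The points share libraries, depth and scaling, and D80WT3 is among them, so these values are descriptions. Of genes with a mean of at least 5 CPM, those with the highest mean r with the 10 over the 12 libraries were Herc6, Samhd1 and Sp100 (0.849 each), Ube2l6 (0.841), Ifi47 (0.838), Psme1 (0.833), Parp9 and Ftsjd2 (0.821 each), against a median of -0.104 over such genes. After subtraction of group means the highest were Marcksl1 and Slc16a3 (0.712 each), Pxdc1 (0.711), Tmem243 (0.707) and Trim12a (0.703), none of which was among the first 8.

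Genes that neighbour the class I genes on chromosome 17 were also counted. Between the start of Tapbp and the end of H2-D1 there, 82 genes were tested, 7 of them of the 10 and 75 others. Of the 75, 2 were called higher at D60 (2.67%, against 3.66% of all genes) and 0 lower, with a median of 0.11. At D80 13 were higher (17.3%, against 19.4% of all genes) and 11 lower (14.7%, against 22%). Of the 7 class I genes in the same stretch, 6 were called higher at D60, all but Psmb8.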

How the data were processed

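Raw read counts per gene symbol, not normalized, were taken from the authors' table of 12 pylorus libraries, and their normalized table was not used. Per the labels' protocols the mRNA kit was stranded. The submitters' processing notes list mm10, edgeR 3.16.5, HTSeq 0.9.1 and STAR 2.5.3a without roles. Annotation and strand setting: not given in the sources used here.

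R 4.3.3 ran edgeR 4.0.16. After filterByExpr 15369 genes remained, with 99.975% of the counts, and 4513 genes of the table had 0 counts throughout. The quasi-likelihood fit had a mean per group and 8 residual degrees of freedom, and genes varied between libraries of a group by a coefficient of variation of 24.2% beyond counting error. Benjamini-Hochberg adjustment ran over every gene fitted, and a call needed an adjusted p below 0.05 with no minimum fold. Intervals are 95%. The code was tested on simulated data. Lengths and coordinates came from GENCODE M21 on GRCm38 (mm10). Ratios of raw counts within a library were tested by exact permutation.

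The 10 genes, the other lists and the naming rule were chosen with earlier results of these data known. The rule named the 10, up to 4 called genes of each pathway list and comparison with a mean of at least 1 CPM, 12 set genes and the genes most correlated with the 10. Calr, Canx, Pdia3, Rfxap and Ifne fall outside it and were named after their values were seen. Alternatives were RLE and upper-quartile factors or none, other filters, DESeq2 1.42.0, limma-voom (limma 3.58.1), only the groups compared, a replicate block, sex type as a covariate, other controls and omitted libraries. One regulator of the lists is not reported here by name or value.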

Additional observations from a re-analysis of the deposited data

Results flagged for a closer look

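The genotype difference changed between D60 and D80 by a test of the interaction in edgeR for 1 of the 10 class I genes and for 3 other named genes. Tap1 had an interaction of -1.55 on the log2 scale (adjusted p = 0.031), from a genotype difference of 2.16 at D60 to 0.61 at D80. Irf9 (-1.14, adjusted p = 0.022), an activator of interferon-stimulated genes, and Parp9 (-1.26, 0.029), among the genes most correlated with the 10, had smaller differences at D80 too. Rfxank had an interaction of -1.25 (0.048), from -0.08 at D60 to -1.33 at D80, so its difference grew in the lower direction. All 4 lost their calls without a composition factor, with sex type as a covariate, and without some single libraries, Irf9 with the fewest such losses (D60SV3, D60WT3 or D80SV2, adjusted p 0.058 to 0.071). Leukocyte and epithelial markers also changed with age in transgenic mice, and their part was not tested. Sex type differs between the D60 genotypes, so it is mixed into these interactions.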

How the results depend on the processing

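With 3 libraries per group and these depths, single libraries decided many calls. Over the omission of each library in turn, the number of the 10 genes called was 2 to 10 higher at D60, 1 to 4 higher at D80, 0 to 3 lower with age in transgenic mice, 0 to 3 higher with age in wild-type mice and 0 to 5 with a lower interaction. The 5 came without D80WT1, where lower interactions were called in 9.87% of all genes. At D60, 9 genes became 3 with D80WT libraries as controls, 5 with D80WT1 and D80WT2 as controls and 0 with sex type as a covariate, and Erap1 was at -0.13 and -0.19 under the first 2. At D80, 1 gene became 2 with DESeq2, limma-voom or the replicate block, 3 with upper-quartile factors, 6 without a composition factor and 4 without D80WT3 and D80SV1 together. With age in transgenic mice, 3 lower genes became 1 under a 5 CPM minimum and 0 without a composition factor (1 higher) or with sex type. With age in wild-type mice DESeq2 gave 2, and for the interaction it gave 3, with 0 by limma-voom, without a composition factor or with sex type. Without a composition factor, values turned positive at D80 for Irf2 (0.11), Pomp (0.06), Psma2 (0.09), Psma6 (0.06) and Psmb2 (0.06), and with age in transgenic mice for Irf2 (0.29), Pomp (0.02), Psma2 (0.02) and Psmb7 (0.01), as the median of all genes moved. For the other changes the cause was not tested. Over all genes, sex type left 85 and 0 called higher and lower at D60 in place of 562 and 37, and 77 and 22 interactions in place of 425 and 343, while DESeq2 gave 833 and 159 at D60, 164 and 90 with age in wild-type mice in place of 0, and 960 and 785 interactions. Deviations from group means in same-number libraries had a mean r of -0.00405 over 18 pairs (-0.344 to 0.393, 6 over 0.1). Whether the numbers mark paired libraries in some of the groups was not tested. With the replicate block 7 genes were called at D60, all but Tap2, Tapbp and Psmb8, and Tap1 joined Nlrc5 at D80 (0.67, adjusted p = 0.029). The other counts of the 10 were as before. Of the alternative values of single class I genes, 1026 stayed on the same side of the threshold, 32 came to pass it and 100 ceased to. The 1026 include values that changed sign without a call in either fit, which were not counted apart. A further 2 changed sign with a call in at least 1 of the fits. Nlrc5 has 11 to 29 counts in D60WT libraries, which limits its precision.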
